A study of Mus musculus with 8 samples.

Results

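The 10 genes described here encode the core of activator protein 1 (AP-1) and its close relatives, namely the FOS genes Fos, Fosb, Fosl1 and Fosl2, the JUN genes Jun, Junb and Jund, and the related genes Jdp2, Batf and Batf3. They are 10 of the 55304 gene symbols annotated in GENCODE release M21 on the mouse genome build mm10. They were chosen by the DNA motif that their proteins share, since that motif was already known to be denser in distal regions whose acetylation rose in these data. For each gene the H3K27ac regions over its transcription start sites (TSSs), in its gene body and within 50 kb of its TSSs were collected.

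AP-1 is a dimer of basic leucine zipper proteins. FOS proteins bind DNA only together with a partner such as a JUN protein, whereas JUN proteins can also pair with each other, and the dimer reads a short palindrome called the TPA response element (TRE). Fos, Fosb, Jun and Junb are textbook immediate-early genes, which are transcribed within minutes of a signal through mitogen- and stress-activated kinases and through serum response factor (SRF) bound at CArG boxes. JDP2 and the BATF proteins form dimers with JUN proteins but lack the activation domain of FOS, and JDP2 is known as a repressor of AP-1 sites.

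Mouse primary hepatocytes (MPH) from adult male wild-type mice (C57Bl6 in the labels, C57BL/6J in the methods) were exposed for 4 h to 1 µM thapsigargin, which blocks the calcium pump of the endoplasmic reticulum (ER) and triggers acute ER stress (ERS), or to 0.04% DMSO as vehicle. Acetylation of lysine 27 of histone H3 (H3K27ac), which is found at enhancers and promoters in use, was profiled by chromatin immunoprecipitation and sequencing in 3 libraries per treatment, with 1 input library per treatment, which makes 8 libraries. Cells placed in culture after isolation are a limited model of the liver, and 1 time point shows nothing of earlier or later states. The data analysed are 3 lists of regions made from all libraries jointly, named H3K27ac UP, DOWN and unchanged by their change upon ERS, and each region has only a position and a name.

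With no count, signal or fold change for a region or library, the depth behind the regions is not known, the spread between experiments cannot be given, and no comparison could be tested. Of the 32196 regions, 5508 were UP (17.1%) and 3376 were DOWN (10.5%), so that 62.0% of the 8884 changed regions were UP. A peak with significant but mixed change among its bins enters none of the lists, so a gene without a region may lack acetylation or may hold such a peak, and these cases cannot be told apart. TSSs of hepatocyte genes lay in a region for 10 of 10 markers (6 in unchanged regions, such as Alb and Apob, 3 in DOWN regions, such as Hnf4a and Apoa1, and Asgr1 in an UP region), against 0 of 5 Kupffer cell, 1 of 5 liver endothelial cell, 0 of 5 stellate cell and 0 of 5 leukocyte markers. The endothelial marker with a region was Stab2.

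The sequences that the results refer to are shown first. Those of the promoters of Fos, Jun and Junb are the 250 bases before the RefSeq start, from the GRCm38.p6 assembly. They represent the 3 situations found among the promoters with a sequence, which are an unchanged region, no region and a DOWN region. An UP region is missing from these because no promoter sequence was found for Fosl1, the only gene with a TSS in one. The capitals mark TGACG, the first part of the cAMP response element (CRE) TGACGTCA, or the variant CRE TGACATCA, each searched on both strands.
Fos promoter, chr12:85473640-85473889, plus strand: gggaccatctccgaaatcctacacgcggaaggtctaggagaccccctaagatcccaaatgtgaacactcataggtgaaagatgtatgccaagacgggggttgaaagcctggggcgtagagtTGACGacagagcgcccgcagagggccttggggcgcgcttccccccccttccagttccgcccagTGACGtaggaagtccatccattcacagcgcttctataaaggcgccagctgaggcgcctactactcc
Jun promoter, chr4:95052223-95052472, minus strand: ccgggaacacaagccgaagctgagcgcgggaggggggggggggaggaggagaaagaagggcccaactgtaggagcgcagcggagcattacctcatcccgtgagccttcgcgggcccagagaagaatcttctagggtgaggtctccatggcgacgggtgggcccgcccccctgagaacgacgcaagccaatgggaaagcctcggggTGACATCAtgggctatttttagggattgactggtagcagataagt
Junb promoter, chr8:84978749-84978998, minus strand: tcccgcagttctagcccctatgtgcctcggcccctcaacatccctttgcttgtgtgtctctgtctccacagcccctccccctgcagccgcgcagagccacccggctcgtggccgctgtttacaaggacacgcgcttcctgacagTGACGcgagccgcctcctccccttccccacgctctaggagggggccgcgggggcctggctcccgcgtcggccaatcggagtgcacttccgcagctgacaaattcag

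Sites in the regions at and near the genes follow, on the plus strand of mm10, with the TRE (TGACTCA or its reverse complement TGAGTCA) or the CArG box in capitals. They are shown because they lie in the UP region at Fosl1, in the only UP region near Fosb, in the DOWN regions at Fos and Junb, and in the unchanged regions over the Fos and Fosb TSSs.
Fosl1 UP region, untranslated part of the first exon, chr19:5447886-5447914: agaggcgcgagTGAGTCAgaaccgcagcc
Fosl1 UP region, intron, chr19:5448835-5448881: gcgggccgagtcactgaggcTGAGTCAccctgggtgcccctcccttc
UP region upstream of Fosb, first TRE, chr7:19344456-19344502: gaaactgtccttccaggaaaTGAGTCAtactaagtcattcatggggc
UP region upstream of Fosb, second TRE, chr7:19344704-19344750: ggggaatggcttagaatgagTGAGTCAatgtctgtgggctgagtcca
DOWN region upstream of Junb, chr8:84985637-84985777: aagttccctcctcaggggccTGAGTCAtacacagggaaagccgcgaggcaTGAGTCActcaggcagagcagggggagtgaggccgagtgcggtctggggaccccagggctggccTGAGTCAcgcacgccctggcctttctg
DOWN region over Junb, upstream CArG box, chr8:84980139-84980188: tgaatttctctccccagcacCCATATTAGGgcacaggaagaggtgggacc
DOWN region over Junb, downstream CArG box, chr8:84976604-84976653: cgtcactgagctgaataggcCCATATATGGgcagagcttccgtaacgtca
Unchanged region over the Fos TSS, chr12:85473561-85473610: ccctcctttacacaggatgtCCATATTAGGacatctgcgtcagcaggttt
Unchanged region over the Fosb TSS, chr7:19310288-19310337: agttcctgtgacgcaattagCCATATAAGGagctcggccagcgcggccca
DOWN region downstream of Fos, chr12:85486094-85486143: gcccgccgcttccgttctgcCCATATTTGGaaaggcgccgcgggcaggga

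At their TSSs, the AP-1 genes mostly held H3K27ac regions that did not change or held none. A TSS lay in a region for 6 of the 10 genes, which were Fos, Fosb, Fosl1, Fosl2, Junb and Jdp2, whereas Jun, Jund, Batf and Batf3 had none. Among the 6, the region was UP for 1 gene (Fosl1), DOWN for 1 gene (Junb) and unchanged for 4 genes (Fos, Fosb, Fosl2 and Jdp2). Of the 12261 genes whose TSS overlapped any region, 21.4% were assigned to an UP and 8.91% to a DOWN region, and 1 of 6 in each class is near these shares. Of 21910 protein-coding genes, 55.2% had no TSS in a region, against 4 of the 10 AP-1 genes.

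The median width of the TSS regions of the 6 genes was 2510 bp, and that of the widest TSS region of all genes with one was 1850 bp. By class, the medians over genes were 2254 bp (UP), 4082 bp (DOWN) and 1629 bp (unchanged). Widths ran from 1007 bp at Jdp2 to 8292 bp at Junb. The regions at Junb and Fosl2 were the wide ones, whereas the Fosl1 region was narrower than the median of its class.

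**Figure D1:**
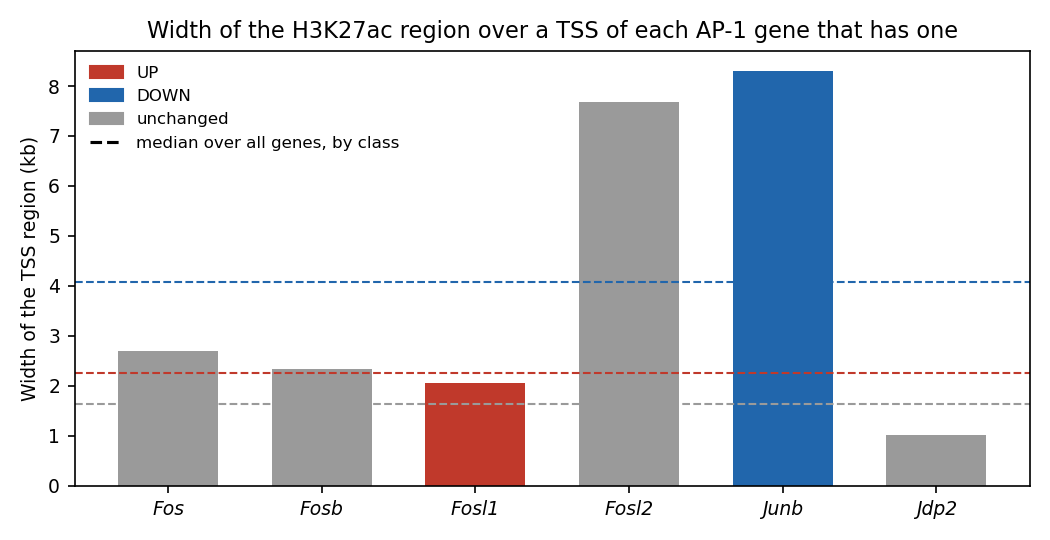
Width in kb of the H3K27ac region over a TSS for each of the 6 AP-1 genes that have one, coloured by class, with a dashed line at the median over all genes for each class. The bars of Junb (8292 bp, DOWN) and Fosl2 (7676 bp, unchanged) stand far above the line of their class, and the bar of Fosl1 (2046 bp, UP) lies below its line.

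Fos (ENSMUSG00000021250.13, chr12:85473890-85477273, plus strand), the prototype of the family, lay under an unchanged region at chr12:85471859-85474544. This region was 2686 bp wide, wider than the region of 75.2% of genes with an unchanged TSS region, and reached from 2031 bp before the TSS to 654 bp after it. It held the TSS of 1 of 4 transcripts, the protein-coding one, and it covered 19.4% of the gene body. It also held the CArG box shown above, at 309 bp before the TSS, in the place where the textbook serum response element of Fos lies. A CArG box is found in 9.40% of unchanged regions at a TSS, a share that does not allow for width. The median of these regions over genes was 1629 bp.

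A DOWN region lay downstream of Fos at chr12:85484154-85486463, from 10264 bp to 12573 bp after the outermost TSS and outside any gene. It was 2310 bp wide and held a CArG box but no TRE. The other 3 regions within 50 kb of Fos were unchanged, lay 17876 to 23415 bp upstream and were 639 to 1176 bp wide. Hence the only changed region near Fos was DOWN, and the nearest UP region was 98128 bp away.

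Fosb (ENSMUSG00000003545.3, chr7:19302696-19310051, minus strand) encodes a FOS protein that is also induced as an immediate-early gene. All 7 of its transcripts began in an unchanged region of 2334 bp at chr7:19308274-19310607, which covered 24.2% of the gene body and was wider than 69.3% of its class. As at Fos, this region held a CArG box, 257 bp before the outermost TSS.

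Fosb had the most changed regions of the 10 genes, with 3 DOWN, 1 UP and 5 unchanged regions within 50 kb. The DOWN regions were 3722 bp wide over a TSS of Vasp, an actin regulator, 1200 bp over the TSS of the long non-coding RNA Gm44698, and 1205 bp in an intron of the non-coding gene D830036C21Rik. The UP region, chr7:19344000-19345378, was 1379 bp wide and lay over a TSS of Ercc1, which encodes a subunit of a DNA repair endonuclease, 33949 bp upstream of Fosb. It held the TRE 2 times, as shown above. All 3 of the regions nearest to Fosb, within 10 kb, were unchanged.

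Fosl1 (ENSMUSG00000024912.6, chr19:5447547-5455946, plus strand), which encodes FRA1, was the only AP-1 gene with a TSS in an UP region. The region, chr19:5447728-5449773, was 2046 bp wide, wider than 44.5% of UP regions at the TSS of a gene, and covered 24.4% of the gene body. It began 181 bp and 23 bp downstream of the TSSs of the 2 protein-coding transcripts, and only the TSS of a transcript with a retained intron lay in it. With protein-coding transcripts alone, the count of AP-1 genes at UP regions was 0, so the assignment to Fosl1 rests on that transcript although the region starts close to both coding TSSs.

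The Fosl1 UP region held the TRE 2 times, at 350 bp and 1308 bp after the outermost TSS, in the untranslated part of the first exon and in an intron. Of all UP regions at a TSS, 42.6% held at least 1 TRE. Around it lay 6 unchanged regions and no DOWN region within 50 kb, the nearest DOWN region being 188706 bp away. The unchanged neighbours included a 5004-bp region 13447 bp upstream outside any gene, with 3 TREs, and regions over TSSs of Drap1, Ccdc85b, Fibp and Cfl1. Thus the region at the gene itself was the only changed one in its neighbourhood.

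Fosb, Fosl1 and Jun each had 1 UP region within 50 kb, the highest number among the 10 genes, and only Fosl1 of these had it over a TSS of its own. For Fosl1, the counts of 1 UP, 0 DOWN and 6 unchanged regions were shared by 29 of 2122 protein-coding genes with a TSS in an UP region. The 3 nearest of these by the width of the TSS region were Usp16 (2073 bp), which encodes a deubiquitinase, and the neighbours Arel1 and Fcf1 (2192 bp each, 1 shared region).

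Fosl2 (ENSMUSG00000029135.10, chr5:32135801-32157842, plus strand), which encodes FRA2, had the widest unchanged region of the family. The region, chr5:32132773-32140448, was 7676 bp wide, wider than 97.8% of unchanged TSS regions over genes, and together with a second unchanged region of 598 bp inside the gene it covered 23.8% of the gene body. It held 1 TRE, 53 bp after the outermost TSS. The only changed region within 50 kb was DOWN, 2450 bp wide and 48862 bp from the nearest TSS on the downstream side, with 1 TRE, so it barely came within the distance. That TSS belongs to a transcript with a retained intron. From the outermost TSS, that of the only protein-coding transcript, the region began 59582 bp away, outside the distance.

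The JUN genes, which have a single coding exon each, included 1 gene inside a DOWN region and 2 genes without a region. Junb (ENSMUSG00000052837.6, chr8:84974484-84978718, minus strand) lay wholly in a DOWN region, chr8:84973250-84981541. At 8292 bp it was the widest of the 46 regions within 50 kb of the AP-1 genes and wider than 82.6% of DOWN TSS regions over genes, and it reached from 2823 bp before the outermost TSS to 5468 bp after it. It covered 100% of the gene, both of its TSSs included, and extended into Prdx2, a peroxiredoxin gene. It held 2 TREs and 2 CArG boxes, the latter 1441 bp before and 2094 bp after the outermost TSS. The second of these lies beyond the end of the coding transcript. Of all DOWN regions at a TSS, 52.3% held a TRE and 22.1% held a CArG box. These shares do not allow for width. A wider region has more room for a match, and the median DOWN region at a TSS was 4082 bp wide.

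A second DOWN region, chr8:84984211-84986664, lay 5493 bp upstream of Junb, outside any gene. It was 2454 bp wide and held 4 TREs, all TGAGTCA on the plus strand, the highest count in any region near the AP-1 genes. The last 3 of them fall in the stretch of 141 bases shown above. The other 5 regions within 50 kb were unchanged and lay at or near Rnaseh2a, Prdx2, Hook2 and Asna1, so the 2 DOWN regions at Junb were bordered on both sides by regions that did not change. The nearest UP region was 85228 bp from Junb.

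Jun (ENSMUSG00000052684.4, chr4:95049034-95052222, minus strand) had no region over its TSS or in its gene body. Only 1 region lay within 50 kb, an UP region of 688 bp at chr4:95004978-95005665, 46557 bp downstream in an intron of the antisense gene Gm12694. It held no TRE, and an unchanged region of 217 bp lay just beyond the distance, at 50296 bp. The Jun promoter shown above holds the variant CRE TGACATCA, which occurs in 2.93% of the 32851 RefSeq promoters, and through which JUN is known to act on its own gene. Thus the lists place no acetylated region at Jun itself.

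Jund (ENSMUSG00000071076.6, chr8:70698949-70700616, plus strand), which in most tissues is expressed without a stimulus, also had no region over its TSS or gene body. Unlike Jun, it had 9 regions within 50 kb, of which 8 were unchanged and 1 was DOWN. The closest was unchanged and 18470 bp away. The DOWN region was 5536 bp wide, lay 48084 bp upstream in Pgpep1, a peptidase gene, and held 2 TREs. A further DOWN region of 1731 bp lay 58814 bp away, outside the distance.

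**Figure D2:**
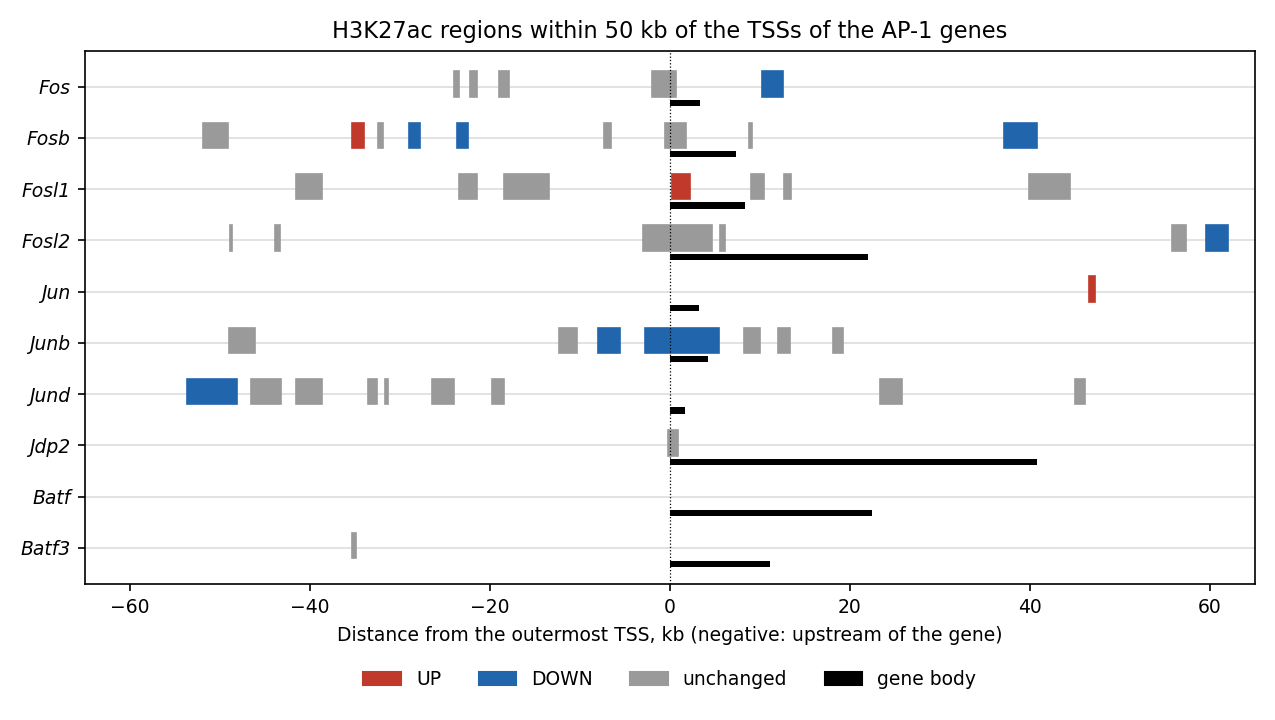
H3K27ac regions (boxes, to scale, coloured by class) within 50 kb of a TSS of each AP-1 gene, by distance in kb from the outermost TSS in the direction of transcription, with the gene body as a black bar. Junb lies inside a DOWN box of 8292 bp, Fosl1 begins beside an UP box, Jun has a single UP box 46557 bp downstream, and Batf has no box.

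The 3 related genes had few regions. Jdp2 (ENSMUSG00000034271.16, chr12:85599027-85639878, plus strand) had 1 unchanged region of 1007 bp over TSSs of its own and of the non-coding gene Gm47863, narrower than most of its class (24.2% of genes had a narrower one) and covering 2.08% of its body. Batf (ENSMUSG00000034266.6, chr12:85686669-85709087, plus strand), known for its role in lymphocytes, had no region within 50 kb, as did 26.1% of protein-coding genes. Its nearest region was unchanged and 62993 bp away. Batf3 (ENSMUSG00000026630.9, chr1:191097847-191108945, plus strand), known for its role in dendritic cells, had 1 unchanged region of 353 bp over a TSS of Tatdn3, 34942 bp upstream.

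Several of these genes are neighbours of each other or of related genes. Fos, Jdp2 and Batf follow one another on chromosome 12, and no region was within 50 kb of more than 1 of them. The DOWN region downstream of Fos was the region nearest to Jdp2 outside its own promoter, at 112564 bp. The UP region nearest to Batf3, 80207 bp away, was the 5516-bp region over a TSS of Atf3, a stress-induced bZIP gene, and Atf3 had 6 UP and 0 DOWN regions within 50 kb of its own TSSs.

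In the gene bodies, 7 regions overlapped 6 of the 10 genes by at least 1 bp, and these were the 6 regions over a TSS plus the 598-bp region inside Fosl2. Of the 7, 1 was UP, 1 was DOWN and 5 were unchanged. Apart from Junb, where the whole gene was covered, the covered share ran from 2.08% at Jdp2 to 24.4% at Fosl1. The 4 genes without a TSS region had no region in the body either.

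Within 50 kb of the TSSs of the 10 genes lay 46 distinct regions, with 3 UP, 8 DOWN and 35 unchanged. The DOWN region near Fosl2 is among them only through the TSS of a transcript with a retained intron. The UP share of the 11 changed regions was 27.3% (95% Wilson interval from 9.75% to 56.6%), below the 62.0% over all changed regions (61.0% to 63.0%). These intervals cover counting error alone and treat regions as independent, although neighbouring regions are not. The share was 25% within 10 kb, 20% within 25 kb and 39.1% within 100 kb, where 9 UP and 14 DOWN regions lay. Counted by regions, the share lay below that over all changed regions at each of these distances. Counted by base pairs in place of regions, it was 13.1% within 50 kb. The 62.0% is a share of regions and does not apply to base pairs. In the whole series, UP regions spanned 12847 kb and DOWN regions 10889 kb.

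Of the 9 AP-1 genes with a region within 50 kb, 2 had more UP than DOWN regions within 50 kb (Fosl1 and Jun), 5 had more DOWN than UP (Fos, Fosb, Fosl2, Junb and Jund) and 2 had neither (Jdp2 and Batf3), while Batf had no region at all. Of 16193 protein-coding genes with a region within 50 kb, 37.6% had more UP and 17.4% had more DOWN. At this distance, 2 of 9 and 5 of 9 lie below and above these shares, on small counts and without a test. Fosl2 is among the 5 only through the TSS of a transcript with a retained intron. The median number of regions within 50 kb was 5.50 for the 10 genes and 2 for protein-coding genes. Both counts rest on the distance. The count with more UP was 1 within 10 kb or 25 kb (Fosl1 alone) and 4 within 100 kb, where Batf and Batf3 joined Fosl1 and Jun. The count with more DOWN was 2 within 10 kb (Fos and Junb), 3 within 25 kb and 4 within 100 kb, as many as had more UP.

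**Figure D3:**
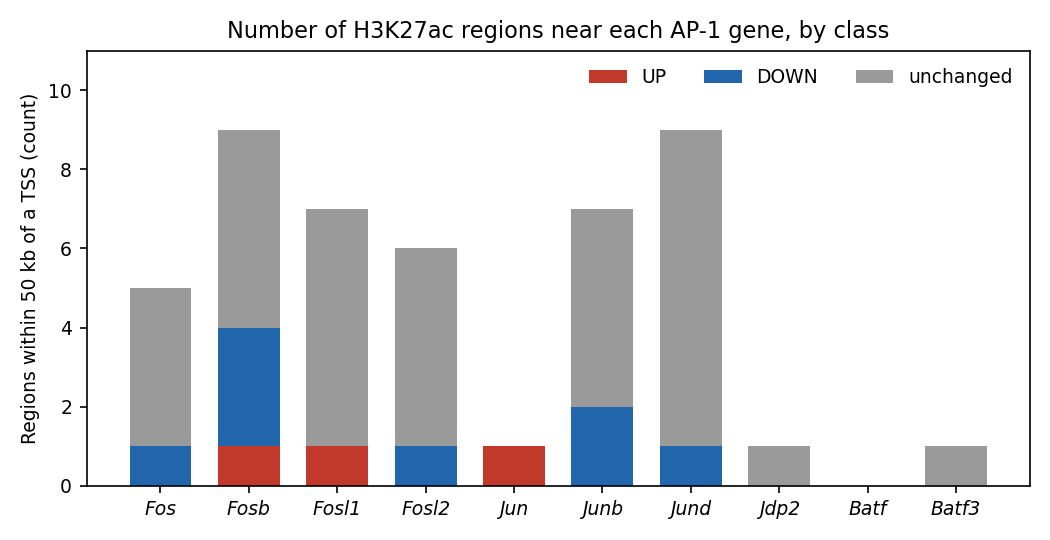
Number of UP, DOWN and unchanged H3K27ac regions within 50 kb of a TSS of each AP-1 gene, as stacked bars. Fosb and Jund have 9 regions each, Fosb has 3 DOWN regions and 1 UP region, Jun has a single UP region and Batf has none.

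The density of the TRE is what the genes were chosen by, and it is given as a description. Distal regions, with no TSS within 1 kb, held 0.552 TRE matches per kb in the UP class, 0.265 in the DOWN class and 0.404 in the unchanged class. At least 1 match was found in 60.9% of distal UP, 42.0% of distal DOWN and 38.7% of distal unchanged regions. These shares do not allow for width, and by density the DOWN class lay below the unchanged class. At TSSs the densities were lower, with 0.258, 0.204 and 0.189 matches per kb. The octamer TGACGTCA was rarer, with 0.00877 matches per kb of distal UP, 0.00770 of distal DOWN and 0.00869 of distal unchanged region. It is a longer word than the TRE, which was searched in both of its forms, so the densities of the motifs are unlike measures.

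Around the AP-1 genes themselves, the 3 UP regions held 4 TREs, or 0.973 per kb (exact 95% Poisson interval from 0.265 to 2.49), all of them in the regions at Fosl1 and Ercc1. The 8 DOWN regions held 12 TREs, or 0.442 per kb (0.228 to 0.772), and 6 of the 8 held at least 1. The 35 unchanged regions held 19, or 0.296 per kb (0.178 to 0.462). Over all 46 regions the density was 0.367 per kb (0.255 to 0.510), and that over all regions of the series was 0.317. The density in UP regions was 0.479 per kb with UP regions within 100 kb and 2 per kb in the central 500 bp of the 3 regions, so it moved by over 1.5 times with these choices, and all UP regions together held 0.409 per kb. The intervals of the 3 classes near the AP-1 genes overlap, and 38.3% of all regions hold a TRE, so a TRE beside one of these genes is no rarity.

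**Figure D4:**
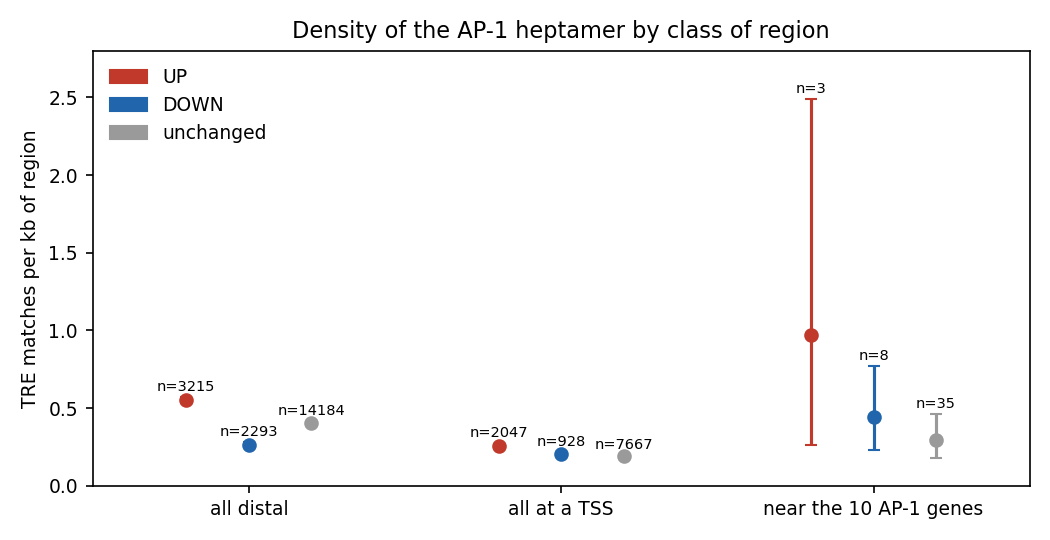
TRE matches per kb of region by class, in all distal regions, in all regions at a TSS and in the regions within 50 kb of the 10 AP-1 genes, with exact 95% Poisson intervals and the number of regions. Distal UP regions have the highest density of the large sets (0.552 per kb), and the intervals of the 3, 8 and 35 regions near the AP-1 genes overlap.

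Promoter sequences were found for 9 of the 10 genes, as 11 windows of 250 bases. The gene without one was Fosl1, so the counts below leave out the only gene with a TSS in an UP region. The windows follow RefSeq starts, and that of Jund lies 1210 bp and that of Fosl2 299 bp from the nearest M21 TSS, so these do not show the sequence at the TSSs used above. The TRE, the CRE octamer and the CArG box were in 0 of the 11, where 4.46%, 1.55% and 1.47% of all promoters hold them. With shares this low, 0 among 11 windows says little. For the CArG box it also rests on the 250-base cut. The boxes of Fos and Fosb, 309 bp and 257 bp before the outermost TSS, lie just outside their windows. The shorter TGACG, which the CRE octamer contains, was in 5 of the 11, at Fos, Fosb, Junb, Jdp2 and Batf, and in 17.8% of all promoters. The windows are few, and several are of Jdp2, so they are not independent. TGACG also holds a CpG, and the difference from all promoters was not tested. Within 500 bp on each side of the outermost TSS, the ratio of observed to expected CpG was above the median of protein-coding genes (0.552) for 9 of the 10 AP-1 genes and below it for Batf (0.340). Jun (0.797) and Jund (0.882), which lack a region, were as rich in CpG as Fos (0.725) and Fosb (0.838), which have one. The other genes without a region over a TSS, Batf and Batf3 (0.636), had the lowest ratios of the 10.

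The genes around AP-1 in its pathway were read in the same way, as 73 genes in 6 lists. A TSS lay in a region for 56 of them, and of these 56 it was in an UP region for 14 and in a DOWN region for 11, where 21.4% and 8.91% are the shares over the 12261 genes at a region. Among the 18 kinases of the JNK, p38 and ERK cascades, which lead to AP-1, 16 had a region and 10 had unchanged regions alone. UP regions lay at Mapk14 (p38 alpha, 13539 bp), Map3k5 (the stress-activated kinase ASK1, 7867 bp) and Map2k3 (7769 bp), and DOWN regions lay, among others, at Map3k1 (7587 bp) and Map3k20 (2407 bp). Of the genes of the JUN N-terminal kinases, Mapk8 had an unchanged region of 735 bp, and Mapk9 and Mapk10 had none at a TSS.

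Of the 10 phosphatases that switch these kinases off, 8 had a TSS in a region, and 4 of these were UP, the highest share among the lists. They were Dusp1 (14108 bp), Dusp4 (6205 bp), Dusp5 (3602 bp) and Dusp7 (1894 bp), whereas Dusp16 (7320 bp) and Dusp8 (1335 bp) had DOWN regions. Of the 10 other bZIP partners, UP regions lay at Mafk (7608 bp) and Atf3 (5516 bp) and a DOWN region at Maff (3291 bp), with 6 in unchanged regions alone. SRF and its 3 ternary complex factors, which drive immediate-early genes through CArG boxes, had 0 UP regions and a DOWN region at Elk4 (6988 bp), and Srf itself was in an unchanged region (1957 bp).

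Of the 16 other immediate-early genes, 3 had UP regions, which were Myc (10583 bp), Egr1 (4194 bp) and Nr4a2 (839 bp), and 3 had DOWN regions, which were Mcl1 (12250 bp), Btg2 (9680 bp) and Zfp36l1 (9621 bp). The other 7 with a region were unchanged, so this list had as many UP as DOWN genes, as did the AP-1 genes. Of 15 known targets of AP-1, 7 had a TSS in a region, with UP regions that included the one at Hmox1 (9923 bp), which encodes a heme-degrading enzyme. A DOWN region lay at the chemokine gene Ccl2 (8414 bp), and the other 8 targets, among them Mmp9 and Il6, had no region at a TSS.

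**Figure D5:**
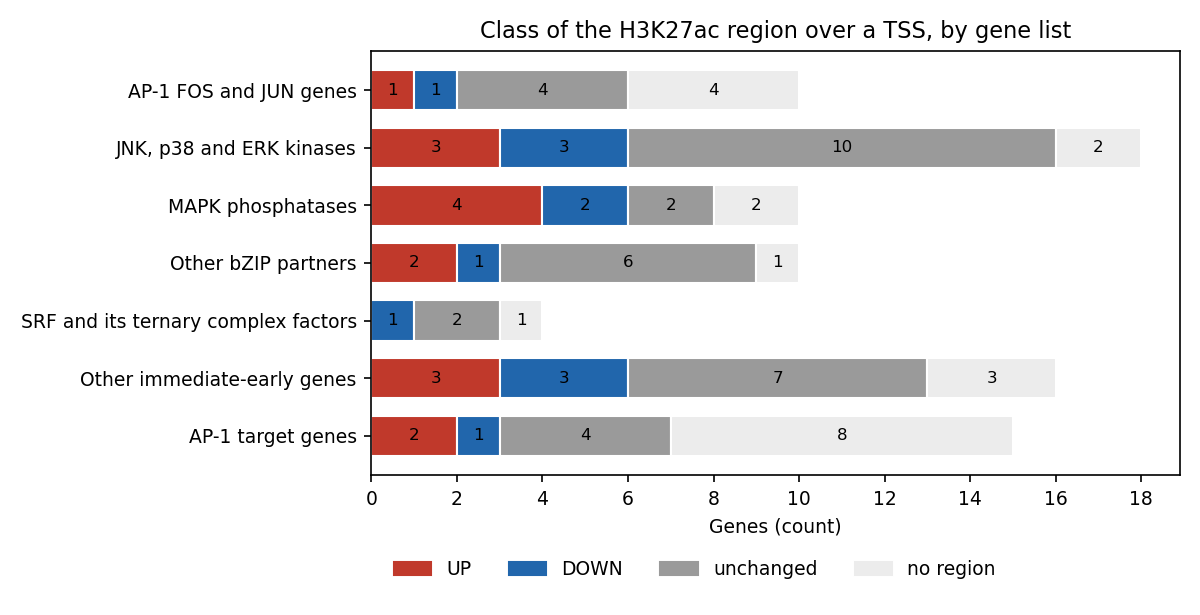
Number of genes by the class of the H3K27ac region over a TSS, for the 10 AP-1 genes and the 6 pathway lists (a gene with an UP or DOWN region and an unchanged one is shown in the changed class). The MAPK phosphatases have 4 UP genes out of 10, and the AP-1 genes have 1 UP, 1 DOWN, 4 unchanged and 4 without a region.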

How the data were processed

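H3K27ac was measured in 8 libraries. The authors aligned reads to mm10 with Bowtie, removed duplicates and blacklisted regions, called broad peaks with MACS2 on pooled libraries, and ran a paired csaw test of bins. They deposited region lists whose values are positions in base pairs, with no counts per library, so depth is unknown. Versions of Bowtie and MACS2 are not given in the sources used here.

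Regions were compared with the TSSs of all transcripts in GENCODE M21 at 0 bp and within 50 kb of a TSS, and with gene bodies at an overlap of 1 bp. Motifs were counted on both strands of the GRCm38.p6 sequence, and promoters were taken from RefSeq. The UP share of changed regions has a 95% Wilson interval, and the other shares are given without one. Exact Poisson intervals are printed for the TRE densities of the regions within 50 kb and drawn for those by class. No test was made.

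The genes, pathway lists and markers were chosen with earlier results of these data known. All 10 members were described, and, for each pathway list, genes with a TSS in a DOWN region and up to 6 with one in an UP region were named, widest first, except for some that are not reported here. Other list genes (Mapk8, Mapk9, Mapk10, Srf, Mmp9, Il6) were named after their values were seen, and 2 older symbols were looked up among synonyms. Alternatives were other distances, widths, transcripts and backgrounds. Counting functions were tested on simulated data with Python 3.11.15, numpy 2.4.6, scipy 1.17.1 and pysam 0.24.0.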

Additional observations from a re-analysis of the deposited data

How the results depend on the processing

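No paired analysis was possible because the lists hold region positions without values per library, which also left no replicate to leave out. Of 26 alternatives, 19 stayed within 1.5 times the reported count or width, or within the interval of the reported share or density. The number of AP-1 genes with a TSS in an UP region fell from 1 to 0 where a region counted only with 500 bp of overlap on both sides of a TSS, and to 0 with protein-coding transcripts alone. The number with more UP than DOWN regions was 1 at 10 kb, 1 at 25 kb, 4 at 100 kb and 1 with regions of at least 1 kb, instead of 2. The share of genes with a TSS in an UP region was 4.74% of all annotated genes, a set that includes those without a region, instead of 21.4%. The UP share by base pairs (13.1%) and the TRE density in UP regions (0.479 per kb within 100 kb, 2 per kb in the central 500 bp) moved by over 1.5 times but stayed inside wide intervals. Counts this small move with a single region, the lists give no error between experiments, and peaks with mixed change are in none of them.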

Other observations

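The distal UP regions with the most TREs were not near the AP-1 genes. They were chosen after their values were seen. The region with the highest count, 13, lay inside Egfr, which encodes the receptor for epidermal growth factor, and it was 39094 bp wide, so its density was 0.333 per kb. By density, the highest of the 6 regions with the most matches was one of 844 bp inside Tmem108, at chr9:103670421-103671264, with 9 matches or 10.7 per kb. Its 9 matches followed one another at a constant distance of 34 bases, as in a tandem repeat, of which the first 3 units are shown, with the TRE in capitals.
Region inside Tmem108, chr9:103670737-103670838, plus strand of mm10: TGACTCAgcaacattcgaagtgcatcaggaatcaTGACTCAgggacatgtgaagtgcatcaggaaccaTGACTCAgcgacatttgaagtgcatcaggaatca

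A region of 3844 bp inside Serpina9 held 8 matches (2.08 per kb), and one of 7466 bp inside Igf1, the gene of insulin-like growth factor 1, held 7 (0.938 per kb).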
